A study of Mus musculus with 5 samples.

Results

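The keratins are the intermediate filament proteins of epithelial cells, and the 48 genes described here are every row of a mouse RNA sequencing count table, of 34970 rows in all, whose symbol is Krt followed by digits and at most 1 letter. Genes of keratin-associated proteins were not members. The table held no row without a read, so each member had at least 1 read in at least 1 library. Counts were deposited for 5 libraries of polyA RNA, 1 from each kind of cell, all labelled wild type. PB came from blood cells that the design text describes as CD45-positive, that is, leukocytes, and BM from bone marrow. MEF came from mouse embryonic fibroblasts, and iPSC from induced pluripotent stem cells. The sample labelled as a complex of myeloid-like cells (MCC) belongs to a study of turning fibroblasts directly into macrophages. The sources used here do not give age, sex, strain or passage, nor the way in which MCC and iPSC were made. With 1 library per group there is no spread between replicates, so no test was possible and each difference describes these libraries only.

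Keratins work in pairs. A filament is built from a type I (acidic) and a type II (basic to neutral) chain, and different epithelia use different pairs. Krt8 with Krt18 is the pair of simple epithelia and the earliest in the embryo, Krt5 with Krt14 that of basal cells of stratified epithelia, Krt1 with Krt10 that of the upper epidermis, and Krt6a with Krt16 and Krt17 a set used in wounds and skin appendages. Blood cells and fibroblasts rely instead on the related protein vimentin.

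Total counts ranged from 30078366 in PB to 47557598 in MCC. Levels are given as CPM, counts relative to a TMM-scaled library size (TMM is a trimmed mean of log ratios between libraries), and, where genes are compared with each other, as CPM per kb of exon. Intervals after values are exact 95% limits that cover counting error only. A floor of 3 reads corresponds to between 0.0574 CPM in iPSC and 0.100 CPM in PB. At a level of 5 CPM, iPSC held 6 of 6 pluripotency genes and the rest held 0, MEF held 6 of 6 fibroblast genes, and PB, BM and MCC each held 5 of 5 leukocyte genes. MCC also held 6 of 6 macrophage and 6 of 6 fibroblast genes. Some markers lay outside their label: BM held 6 of 6 macrophage genes, iPSC and BM each held 4 of 6 fibroblast genes, with Col1a1 at 169.8 CPM in iPSC, and iPSC held 2 of 5 leukocyte genes. The library code of PB lies apart from the other codes, so PB and any batch it belongs to cannot be told apart.

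Keratin transcripts were concentrated in iPSC. Summed over the 48 genes they came to 3738 CPM (3721 to 3754) in iPSC, 125 CPM (121 to 129) in PB, 56.1 CPM (53.8 to 58.4) in BM, 34.6 CPM (32.9 to 36.4) in MEF and 13.8 CPM (12.7 to 14.9) in MCC. No neighbouring intervals in this order overlapped. The middle of the order rests on the most abundant keratin of each library, Krt80 in PB and BM. Without it the summed keratin CPM in iPSC was 2471, the summed keratin CPM in MEF 21.3, the summed keratin CPM in BM 19.3, the summed keratin CPM in PB 16.9 and the summed keratin CPM in MCC 8.31, so that MEF lay above BM and PB. In iPSC the family took 0.446% of all counts, against 0.00125% in MCC. In bulk RNA, more cells of a type and more RNA per cell cannot be told apart. Of the 48 genes, 47 had a read in iPSC, 20 in MEF, 19 in MCC, 18 in PB and 11 in BM. Among all genes the shares with a read were 80.6%, 69.9%, 71%, 74.3% and 76.9% in the same order.

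Most of the family stayed near 0. Only 17 of 48 members reached 1 CPM in any of the 5 libraries, and the other 31 peaked at 0.842 CPM or less. The share of all genes at 1 CPM in any of the 5 is not given here, so shares are set side by side per library. At 1 CPM or more were 14 members in iPSC (29.2% of the family), 7 in MEF, 4 in MCC, 6 in PB and 5 in BM. Among all genes the shares at 1 CPM were 41.4% in iPSC, 38.3% in MEF, 39.9% in MCC, 40% in PB and 39.6% in BM. At 5 CPM or more were 11 keratins in iPSC, where 31.7% of all genes were, 2 in MEF (30.5% of all genes), 2 in PB (29.3%), 2 in BM (30.3%) and 1 in MCC (32%). The hair shaft keratins, 12 in the table, had 3 at 1 CPM somewhere, the mucosal and corneal ones 1 of 6, and the inner root sheath ones 0 of 7, with Krt28 the highest of these at 0.497 CPM in iPSC. Among the 31, Krt15 of basal cells was highest, with 0.842 CPM in iPSC.

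**Figure D1:**
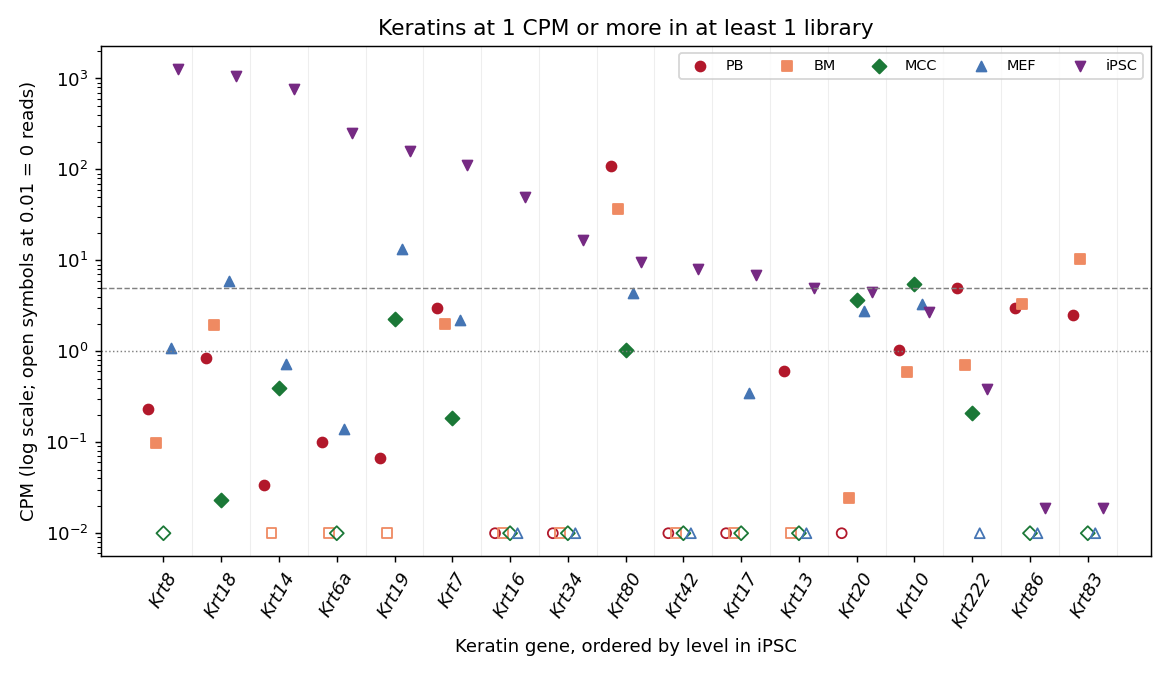
Levels (CPM, log axis) of the 17 keratins that reached 1 CPM in at least 1 library, with 1 symbol per library and open symbols at 0.01 for 0 reads; the dashed line is 5 CPM and the dotted line 1 CPM. Of these, 12 are highest in iPSC, Krt80 and Krt222 in PB, Krt83 and Krt86 in BM, and Krt10 in MCC.

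The simple-epithelial pair led the iPSC library. Krt8, the type II chain, had 66199 reads in iPSC and 47 in MEF, with 7 in PB, 4 in BM and none in MCC, or 1266, 1.09, 0.234, 0.0982 and 0 CPM. Krt18, its type I partner, had 55670 reads in iPSC, 258 in MEF, 80 in BM, 25 in PB and 1 in MCC, or 1065, 5.97, 1.96, 0.837 and 0.0231 CPM. Both genes were thus high in 1 library and low or absent in the other 4. Krt8 ranked 55th and Krt18 74th by CPM of all 34970 genes in iPSC. Krt8 was 1165-fold (876 to 1586) and Krt18 179-fold (158 to 203) higher in iPSC than in MEF. Per kb of exon the Krt8 level was 0.873 times that of Krt18 in iPSC and 0.134 times in MEF, so the chains were closer to parity in iPSC.

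Krt8 and Krt18 are neighbours. On mm10 Krt18 lies on the plus strand of chromosome 15, 102028180 to 102032027, although the other 25 type I members lie on chromosome 11. Krt8 lies on the minus strand at 101996698 to 102004482, and 23697 bases separate the pair. Their promoter windows are shown because both genes were high in the same library, beside those of Krt10 and Krt20, the 2 most even across MCC, MEF and iPSC of the 17 members above 1 CPM. Each window runs from 250 bases before to 30 bases after the start site given by RefSeq (GRCm38.p6), read 5′ to 3′ on the gene's own strand. They are chr15:102004313-102004592 (minus) for Krt8, chr15:102027966-102028245 (plus) for Krt18, chr11:99389335-99389614 (minus) for Krt10 and chr11:99438124-99438403 (minus) for Krt20. Capitals mark matches, on either strand, to TATAAA (the TATA box), GGGCGG (the GC box), TGANTCA (AP-1) or GCCNNNGGC (AP-2), and overlapping matches run together.
Krt8: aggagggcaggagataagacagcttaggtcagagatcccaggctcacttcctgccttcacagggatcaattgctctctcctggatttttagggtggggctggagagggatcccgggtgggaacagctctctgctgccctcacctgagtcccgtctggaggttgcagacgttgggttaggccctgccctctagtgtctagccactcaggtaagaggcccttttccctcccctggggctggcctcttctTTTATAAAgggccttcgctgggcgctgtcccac
Krt18: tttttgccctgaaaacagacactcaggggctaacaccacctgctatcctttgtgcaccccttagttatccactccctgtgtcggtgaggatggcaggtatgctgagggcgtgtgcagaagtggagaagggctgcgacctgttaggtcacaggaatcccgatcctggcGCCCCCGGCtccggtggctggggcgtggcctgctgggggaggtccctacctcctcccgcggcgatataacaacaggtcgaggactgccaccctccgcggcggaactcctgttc
Krt10: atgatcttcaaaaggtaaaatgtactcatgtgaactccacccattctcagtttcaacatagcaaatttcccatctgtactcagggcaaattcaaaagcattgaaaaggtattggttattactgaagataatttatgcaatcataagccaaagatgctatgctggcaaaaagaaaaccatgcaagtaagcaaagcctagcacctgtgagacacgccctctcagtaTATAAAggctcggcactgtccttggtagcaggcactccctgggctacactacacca
Krt20: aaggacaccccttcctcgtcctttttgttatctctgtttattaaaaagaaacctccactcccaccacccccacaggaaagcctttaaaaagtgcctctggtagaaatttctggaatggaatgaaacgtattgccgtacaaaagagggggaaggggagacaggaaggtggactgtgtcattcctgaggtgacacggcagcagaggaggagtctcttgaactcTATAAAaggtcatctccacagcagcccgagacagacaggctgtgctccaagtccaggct
TATAAA begins 26 bases before the start in Krt10, 29 before in Krt20 and 1 before in Krt8, where an overlapping match on the other strand begins 3 bases before it. Krt18 holds none, and holds GCCNNNGGC once, 83 bases before its start. These distances are from the RefSeq start, which lies at the 5′ end of the GENCODE gene for Krt10, within 3 bases of it for Krt20, 36 bases inside the gene for Krt18 and 140 bases inside it for Krt8, so those of Krt8 and Krt10 are not from like positions. RefSeq windows were matched for 33 of the 48 members, 9 of them among the 17 above 1 CPM. Of the 34 windows of these genes 18 hold TATAAA (52.9%), against 13.1% of all 32851 windows of 280 bases. GGGCGG was in 2 of the 34 and in 34.7% of all, TGANTCA in 2 and in 7.46%, and GCCNNNGGC in 6 and in 15.4%. A match is a run of letters and not evidence of binding.

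The other simple-epithelial keratins had the same library on top, with wider presence elsewhere. Krt19, a small type I chain of ducts and simple epithelia, had 160 CPM in iPSC, 13.3 in MEF, 2.25 in MCC, 0.0670 in PB and 0 reads in BM. Its level in iPSC was 12.03-fold (11.1 to 13.1) that in MEF, the smallest of the 10 iPSC-over-MEF differences past 4-fold among keratins at 5 CPM or more in either. Krt7, a type II chain of ductal epithelia, had 111 CPM in iPSC, 3.01 in PB, 2.22 in MEF, 1.99 in BM and 0.185 in MCC. It was 49.95-fold (40.8 to 61.8) higher in iPSC than in MEF, and low in all 4 other libraries. Krt20, a type I chain of the gut lining, had 4.46 CPM in iPSC, 3.63 in MCC, 2.77 in MEF, 0.0245 in BM and 0 reads in PB. It was thus present at like levels in the cultured libraries and at a trace or 0 in the native ones. Krt23 stayed below 1 CPM in all 5 libraries, with 0.172 CPM at most.

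Krt14 was the third most abundant keratin in iPSC, without its usual partner. Krt14 had 40419 reads in iPSC, 31 in MEF and 17 in MCC, with 1 in PB and none in BM, or 773, 0.717, 0.393, 0.0335 and 0 CPM. It was 1079-fold (760 to 1588) higher in iPSC than in MEF. Krt5, the type II chain that pairs with Krt14 in basal cells, had 8 reads in iPSC, 7 in MEF, 1 in MCC, 1 in PB and 0 in BM, and its highest level was 0.162 CPM, in MEF. Per kb of exon, Krt14 stood at 439.9 and Krt5 at 0.0697 CPM in iPSC, a ratio of 6314. Krt15, the other type I basal keratin, had 44 reads in iPSC.

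The keratins of wounds and skin appendages were also in iPSC, and at 0 or a trace elsewhere. Krt6a, the type II member, had 13212 reads in iPSC, 6 in MEF, 3 in PB and 0 in BM and MCC, and stood at 253 CPM in iPSC, 1822-fold (837 to 4965) above MEF. Krt16, a type I partner of Krt6a, had 2622 reads in iPSC, or 50.2 CPM, and 0 reads in the other 4 libraries, at least 723-fold above MEF. Krt17, also type I, had 6.83 CPM in iPSC, 0.347 in MEF and 0 reads in PB, BM and MCC. Krt6b, a close copy of Krt6a, had 31 reads in iPSC, 1 in PB and 0 in BM, MCC and MEF. Of the stress keratins, 3 of 4 were thus above 1 CPM in iPSC and 0 of 4 in any other library.

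Smaller amounts of mucosal and hair keratins were present in iPSC. Krt34, a type I keratin of the hair cortex, had 870 reads in iPSC, or 16.6 CPM, and 0 reads in the other 4 libraries, at least 239.9-fold above MEF. Krt42, a type I keratin next to Krt17, had 422 reads in iPSC, or 8.07 CPM, and 0 reads in the rest. Krt13, of the lining of the mouth and gullet, had 4.99 CPM in iPSC, 0.603 in PB and 0 reads in BM, MCC and MEF. Its type II partner Krt4 had 7 reads in iPSC and 0 elsewhere. Krt1 and Krt2, the type II keratins of the upper epidermis, had 5 and 1 reads in iPSC. In all, 15 of the 48 members had reads in iPSC and in none of the other libraries, where 6.64% of all genes did, and 7 of the 15 had 1 to 3 reads.

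Read together, 11 keratins were at 5 CPM or more in iPSC or MEF, and 10 of them were at least 4-fold lower in MEF and 0 higher. The remaining one was Krt80, 2.18-fold (1.84 to 2.59) lower in MEF. Of all 11931 genes at 5 CPM in either library, 8.83% were at least 4-fold lower in MEF and 6.37% higher. The median log2 ratio of MEF over iPSC was −7.48 over the 11 keratins and 0.11 over all genes. All 11 reached 5 CPM in iPSC and only 2, Krt18 and Krt19, in MEF. The count and the median thus rest mostly on genes that entered through iPSC. The lower keratins in MEF came from several role groups: Krt8, Krt18, Krt19 and Krt7 of simple epithelia, Krt14 of basal cells, Krt6a, Krt16 and Krt17 of wounds, Krt34 of hair and Krt42.

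The balance of the chain types differed between libraries. Summed per kb of exon, type I keratins stood at 1326 CPM and type II at 770 CPM in iPSC, a ratio of 1.72. In MEF the sums were 15.02 and 1.72 CPM per kb, a ratio of 8.75, and in MCC 6.16 and 0.265, a ratio of 23.3. The native libraries leaned the other way, with 3.09 for type I and 20.5 for type II in PB, a ratio of 0.150, and 1.87 and 13.5 in BM, a ratio of 0.139. The lean in PB rests mostly on 1 gene, Krt80, which gave 16.9 of the 20.5. In BM Krt80 gave 5.74 and Krt83 5.60 of the 13.5. Filaments need both types, and only in iPSC were both sums above 100 CPM per kb.

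**Figure D2:**
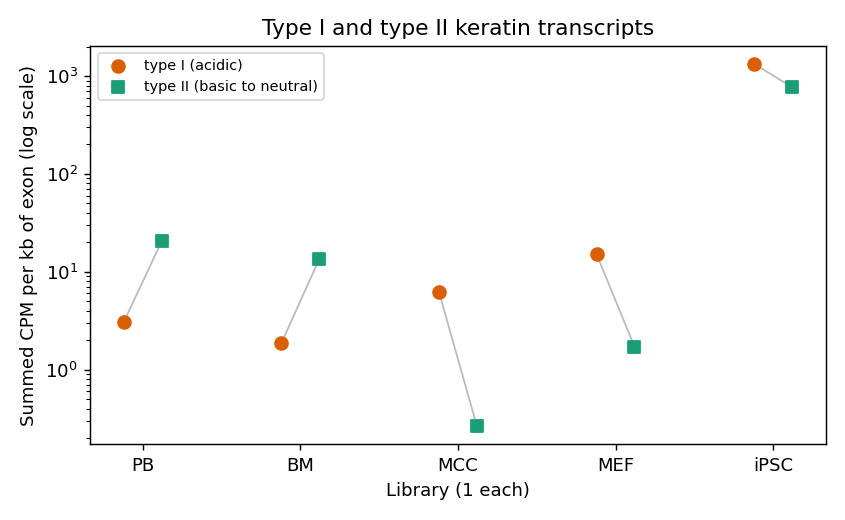
Summed level of type I (circles) and type II (squares) keratins per kb of exon (log axis) in each of the 5 libraries, joined by a line. Type I exceeds type II in iPSC, MEF and MCC, and type II exceeds type I in PB, mostly through Krt80, and in BM.

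MCC had the lowest keratin level of the 5 libraries, and the comparison with MEF sets it against fibroblasts, the cell type named in the series title. Of 3 keratins at 5 CPM in MCC or MEF, 2 were at least 4-fold lower in MCC, Krt18 and Krt19, 1 was neither, Krt10, and 0 were higher. Of all 11720 genes at that level, 2.71% were at least 4-fold lower in MCC and 8.05% higher. Krt18 had 1 read in MCC and 258 in MEF, a ratio of 258-fold (45.9 to 10220.1). Krt19 had 97 and 574 reads, 5.91-fold (4.76 to 7.41) lower in MCC. Below 5 CPM, Krt8 had 0 reads in MCC and 47 in MEF, at least 15.7-fold lower, and Krt7 had 8 and 96, 11.99-fold (5.85 to 28.6) lower. Krt17 had 0 and 15 reads. The simple-epithelial pair of MEF was thus at or next to 0 reads in MCC.

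Other keratins were close in MCC and MEF. Krt10, a type I chain of the upper epidermis, had 236 reads in MCC and 143 in MEF, 5.46 and 3.31 CPM, 1.65-fold (1.34 to 2.05) higher in MCC. Krt20 had 157 and 120 reads, 1.31-fold (1.03 to 1.68) higher in MCC. Krt14 had 17 and 31 reads, and the interval of its 1.82-fold ratio, 0.978 to 3.51, held 1. Krt10, Krt20 and Krt19 together made up most MCC keratin reads, with 39.7%, 26.4% and 16.3%. Krt1, the type II partner of Krt10, had 3 reads in MCC and 0 in MEF. Of the bases of the Krt10 exons, 6.91% lie under an exon of a gene on the opposite strand.

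**Figure D3:**
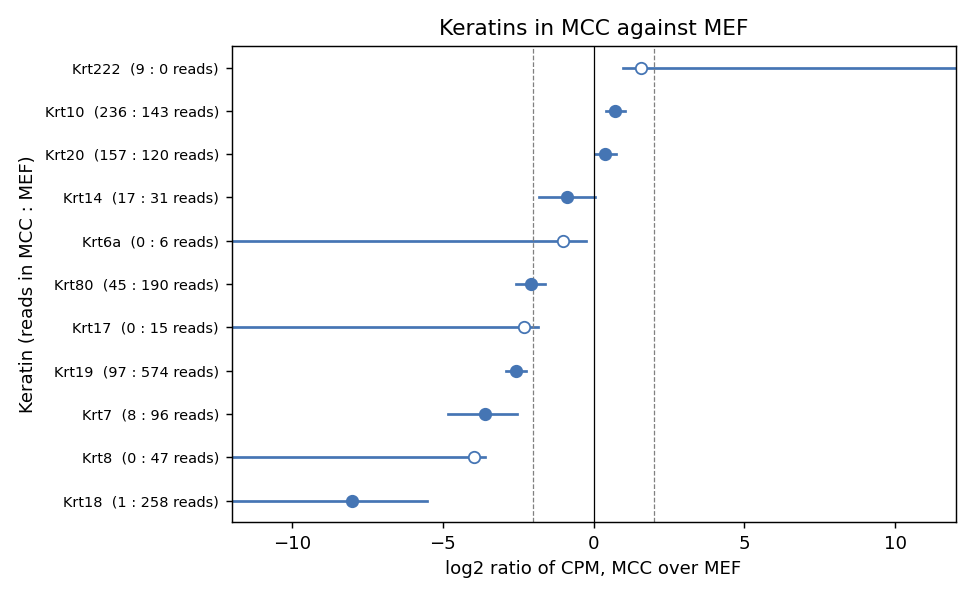
Log2 ratio of CPM in MCC over MEF for those of the 17 keratins above 1 CPM that had more than 3 reads in either library, with reads in MCC and MEF beside each name. Lines are 95% counting intervals, drawn to the axis edge where longer. Open circles are ratios with 0 reads set to 3, and dashed lines mark 4-fold. Krt18, Krt8, Krt7, Krt19 and Krt17 lie to the left of −2, Krt80 just past it, and Krt10 and Krt20 near 0.

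The abundant keratins of iPSC were low or at 0 in MCC. Of 12 keratins at 5 CPM in either library, 11 were at least 4-fold lower in MCC, 0 higher and 1, Krt10, neither. Of all 12442 such genes, 9.77% were lower and 11.3% higher. The median log2 ratio of MCC over iPSC was −8.57 for these keratins and 0.14 for all genes. Of the 12, 11 reached 5 CPM in iPSC only and 1, Krt10, in MCC only. The count and the median thus rest on genes that entered through iPSC. MCC had 0 reads of Krt8, Krt6a, Krt16, Krt17, Krt34 and Krt42, so Krt8 was at least 18240.3-fold and Krt6a at least 3640.4-fold lower. Krt14, with 17 reads in MCC, was 1965-fold (1227 to 3374) lower.

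The native blood samples carried other keratins. Krt80, a type II chain found across many epithelia, had 3233 reads in PB, 1496 in BM, 500 in iPSC, 190 in MEF and 45 in MCC, or 108, 36.7, 9.57, 4.39 and 1.04 CPM. It made up 86.5% of keratin reads in PB and 65.5% in BM, and was the highest keratin in both. It was 2.95-fold (2.77 to 3.14) higher in PB than in BM. Relative to MCC it was 104-fold (77.5 to 143) higher in PB and 35.3-fold (26.2 to 48.6) higher in BM. Its transcripts shared no window of 50 bases with those of another gene, and 4.11% of its exon bases lie under an exon on the opposite strand.

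Type II hair keratins followed Krt80 in marrow. Krt83, of the hair cortex, had 420 reads in BM, 74 in PB, 1 in iPSC and 0 in MCC and MEF, or 10.3, 2.48, 0.0191, 0 and 0 CPM. It was 4.16-fold (3.24 to 5.40) higher in BM than in PB. Krt86, also of the hair cortex, had 135 reads in BM, 90 in PB, 1 in iPSC and 0 in MCC and MEF, and its 1.10-fold BM-to-PB ratio had an interval of 0.836 to 1.45, which holds 1. Krt81, another close copy, had 10 reads in BM, 2 in iPSC and 0 elsewhere. Krt222, a keratin-like type I gene of no settled role, had 150 reads in PB, 29 in BM, 20 in iPSC, 9 in MCC and none in MEF, and was 7.05-fold (4.72 to 10.9) higher in PB than in BM.

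By the 4-fold rule 3 keratins were at 5 CPM in PB or BM: Krt222 was higher in PB, Krt83 lower, and Krt80 neither. Of 11377 genes, 6.32% were higher in PB and 9.68% lower. Against BM, MCC was lower for Krt80 and Krt83 and higher for Krt10, of 3 keratins at that level, where 13.5% of 12427 genes were lower and 15.6% higher. Against PB, it was lower for Krt80 and Krt222 and higher for Krt10, of 3, where 15.4% of 12545 genes were lower and 21.5% higher. Krt10 was 9.27-fold (6.08 to 14.8) higher in MCC than in BM and 5.26-fold (3.61 to 7.92) higher than in PB. When libraries were scaled by total counts alone, Krt10 dropped below 5 CPM in MCC and Krt222 in PB, so these calls ended. With DESeq2 size factors the Krt83 call between PB and BM ended.

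Short runs of neighbouring genes held most keratin reads in PB, BM, iPSC and MCC. Along chromosome 15 the first 6 members, in the order Krt80, Krt7, Krt87, Krt81, Krt86 and Krt83 from 101347444 to 101491512, held 93.4% of keratin reads in PB, of which Krt80 alone gave 86.5%, and 94.0% in BM. The same 6 genes held 3.23% in iPSC, 19.1% in MEF and 8.91% in MCC. At the other end of that cluster, Krt8 and Krt18 held 62.4% of keratin reads in iPSC and 0.856% in PB. On chromosome 11 the last 4 members, Krt14, Krt16, Krt17 and Krt42 from 100203162 to 100269871, held 22.4% in iPSC and 0.0268% in PB. In MCC, Krt10 and Krt20 held 39.7% and 26.4%, with Krt12 the only member between them on chromosome 11. All of these blocks were chosen with their values in view.

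**Figure D4:**
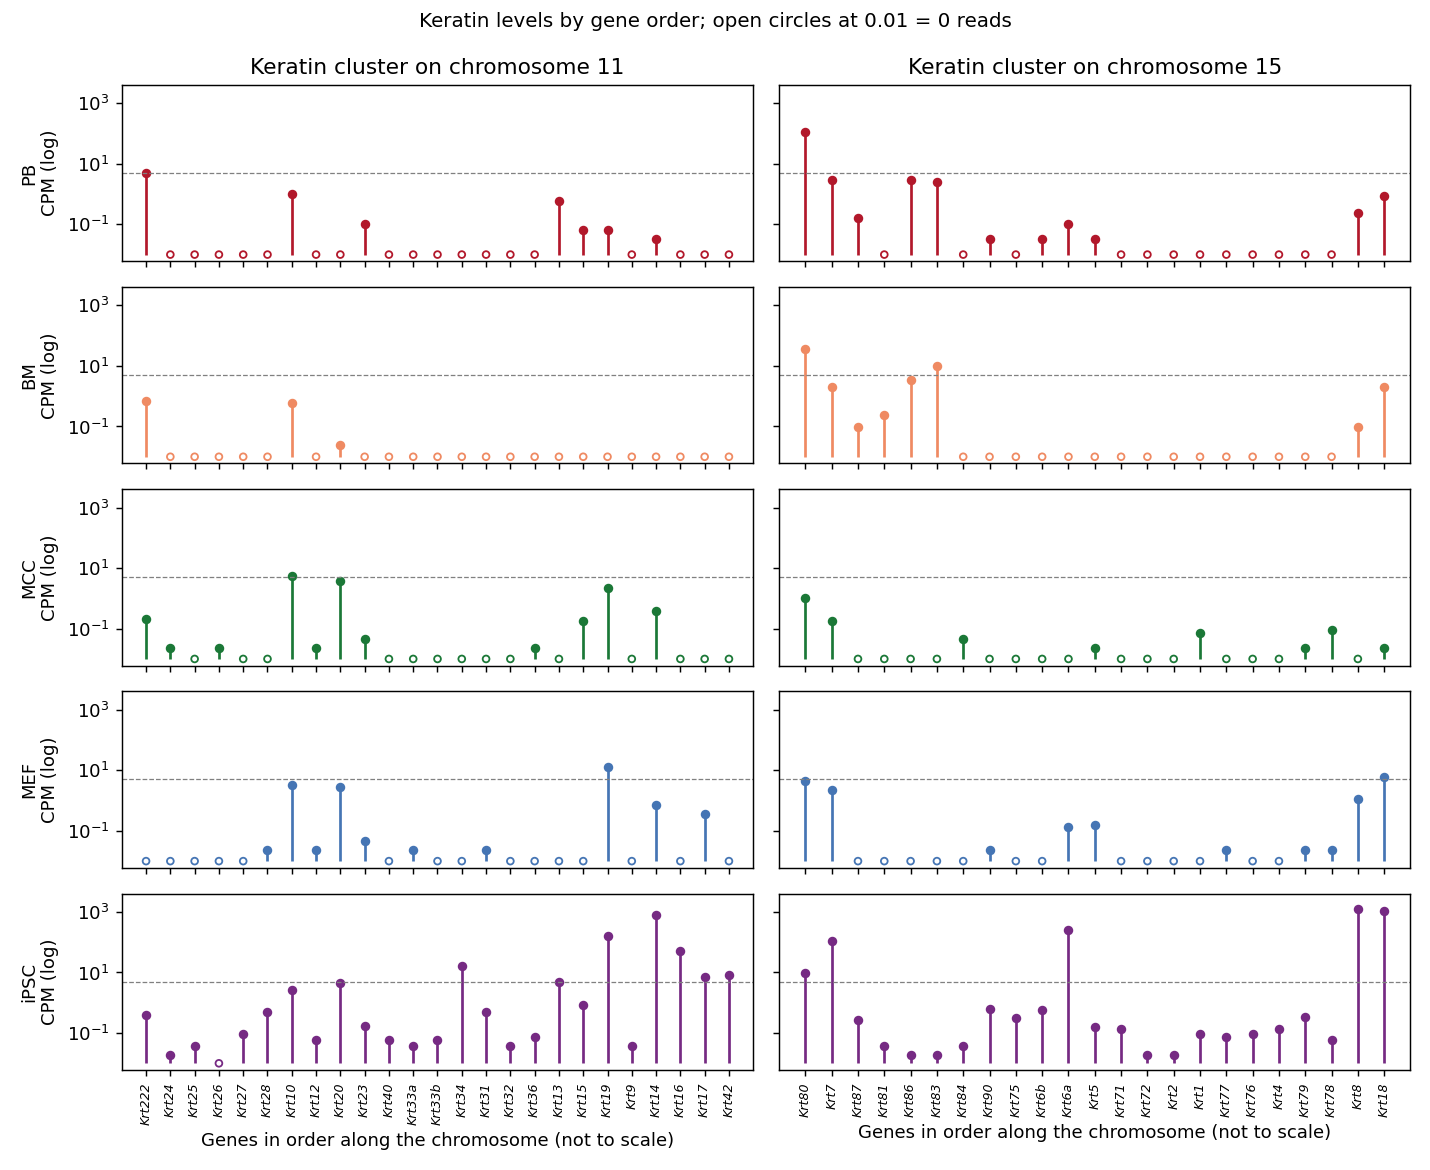
Level (CPM, log axis) of all 48 keratins in their order along chromosome 11 (left) and chromosome 15 (right), with 1 row per library; open circles at 0.01 are genes with 0 reads and the dashed line is 5 CPM. PB and BM have their tallest bars at the left end of chromosome 15, iPSC at the right end of both clusters, and MCC has a single gene, Krt10, above the line.

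Near-identical copies limit some of these counts. Of the 17 keratins above 1 CPM, 7 shared over 10% of their 50-base windows with transcripts of another gene. For Krt6a the share was 45.7%, for Krt86 43.3%, for Krt16 37.6%, for Krt34 33.1%, for Krt8 26.9%, for Krt83 22.1% and for Krt14 13.9%. The sources used here do not say how reads with several possible origins were counted, so their levels are uncertain, and those of Krt81, Krt83 and Krt86 may be split between them. Krt8-ps, a pseudogene of Krt8 that is no member, had 1317 reads in iPSC, 1.99% of the Krt8 reads, and 0 elsewhere. Up to 19.5% of the Krt6a exon bases lie under a gene on the opposite strand.

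Genes of the structures that keratins attach to, from lists of other genes, were read in the same libraries. Desmosomes tie keratin filaments of adjacent cells together and hemidesmosomes tie them to the matrix. Of 16 such genes, iPSC held 13 at 5 CPM or more, with 6 in MCC, 5 in MEF, 5 in BM and 4 in PB. Among all genes the shares were 31.7%, 32%, 30.5%, 30.3% and 29.3% in the same order. Dsp, which encodes desmoplakin, the protein that binds keratin at desmosomes, had 261 CPM in iPSC, 2.14 in BM, 0.462 in MEF, 0.167 in PB and 0.116 in MCC. Of 13 at 5 CPM in either library, 9 were at least 4-fold lower in MEF than in iPSC and 10 lower in MCC than in iPSC. All 13 were at that level in iPSC. Among all genes at that level, 8.83% were lower in MEF and 9.77% lower in MCC. The linker genes Plec (plectin) and Dst (dystonin) were high also in MEF, at 591 and 242 CPM, and in MCC, at 359 and 129 CPM.

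Genes of epithelial junctions and their regulators stood with Krt8 and Krt18 in iPSC. Of 23, 19 reached 5 CPM in iPSC, where 31.7% of all genes did, and each of the 19 was at least 4-fold lower in MEF and in MCC. Among all genes at 5 CPM in either library, 8.83% were lower in MEF and 9.77% lower in MCC than in iPSC. Cdh1, which encodes the adhesion protein E-cadherin, had 372 CPM in iPSC, 13.5 in BM, 4.79 in PB, 0.208 in MEF and 0.162 in MCC. Epcam, an epithelial adhesion gene, had 180 CPM in iPSC and at most 2.54 CPM in the others. In MCC 1 of the 23 reached 5 CPM, the membrane protease gene St14 at 6.78 CPM. Of the defining markers, Cldn3, Cldn6, Esrp1 and Grhl2 had 0 reads there, Cldn4 1, Cldn7 3, Epcam 4 and Cdh1 7. In PB the list summed to 71.3 CPM with 4 genes at 5 CPM, and in BM to 93.9 CPM with 5. Its part in the blood keratins was not tested.

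Keratinocyte genes other than keratins were read beside the high Krt14. Of 18, 4 were at 5 CPM or more in iPSC, where 31.7% of all genes were. They were led by Sfn (stratifin) at 383 and Perp, a desmosome-associated gene, at 193 CPM. Trp63, which encodes the basal-cell transcription factor p63, had 0.363 CPM in iPSC and 3.66 CPM in MCC, where Krt5 had 1 read. Flg (filaggrin) and Lor (loricrin), of the upper epidermis, had 1.40 and 1.09 CPM in iPSC, and were named with their values in view. The list summed to 653 CPM in iPSC, 33.0 in MCC, 20.02 in MEF, 53.2 in PB and 37.2 in BM.

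Markers of other cell types that make simple keratins were read as well. Among all genes, 31.7% reached 5 CPM in iPSC, 30.5% in MEF and 32% in MCC, the shares to set beside each list. Of 8 trophectoderm genes, iPSC held 7 at 5 CPM or more, with Tfap2c, also a germ-cell and stem-cell factor, at 53.3 and Cdx2 at 35.2 CPM. The other defining markers in iPSC were Hand1 at 26.8, Gata3 at 5.95, Eomes at 5.26 and Elf5, below the level, at 0.421 CPM. MCC and MEF each held 1 of the 8. Of 12 endoderm genes, 3 reached 5 CPM in iPSC, 3 in MEF and 2 in MCC. In iPSC these were the laminin gene Lama1 at 28.4, Dab2, an endocytic adaptor, at 10.4 and the transcription factor Gata4 at 6.24 CPM, while Sox17 and Ttr had 0.995 and 0.0191 CPM; the last 3 were named with their values in view. Dab2 was higher in MEF, at 65.7 CPM, and in MCC, at 1025 CPM, which gave MCC the largest sum of the endoderm list, 1035 CPM against 55.2 in iPSC. Of 8 mesothelial genes, 3 reached 5 CPM in iPSC, with Msln (mesothelin) at 141 and Lrrn4 at 10.4 CPM, and 0 in MEF and in MCC. The mesothelial markers Wt1, Upk1b, Upk3b and Muc16 were low in iPSC, at 1.74, 0.650, 0.574 and 0.0574 CPM. The summed level of the trophectoderm list was 160 CPM in iPSC, 37.1 in PB and 5.84 to 10.4 CPM in the other 3 libraries. The sum in PB came from Eomes at 29.8 and Gata3 at 7.20 CPM, named with their values in view, and 1 read of Tfap2a. Cdx2, Tfap2c, Elf5, Hand1 and Tead4 had 0 reads in PB. The part of such cells in the iPSC keratins was not tested.

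**Figure D5:**
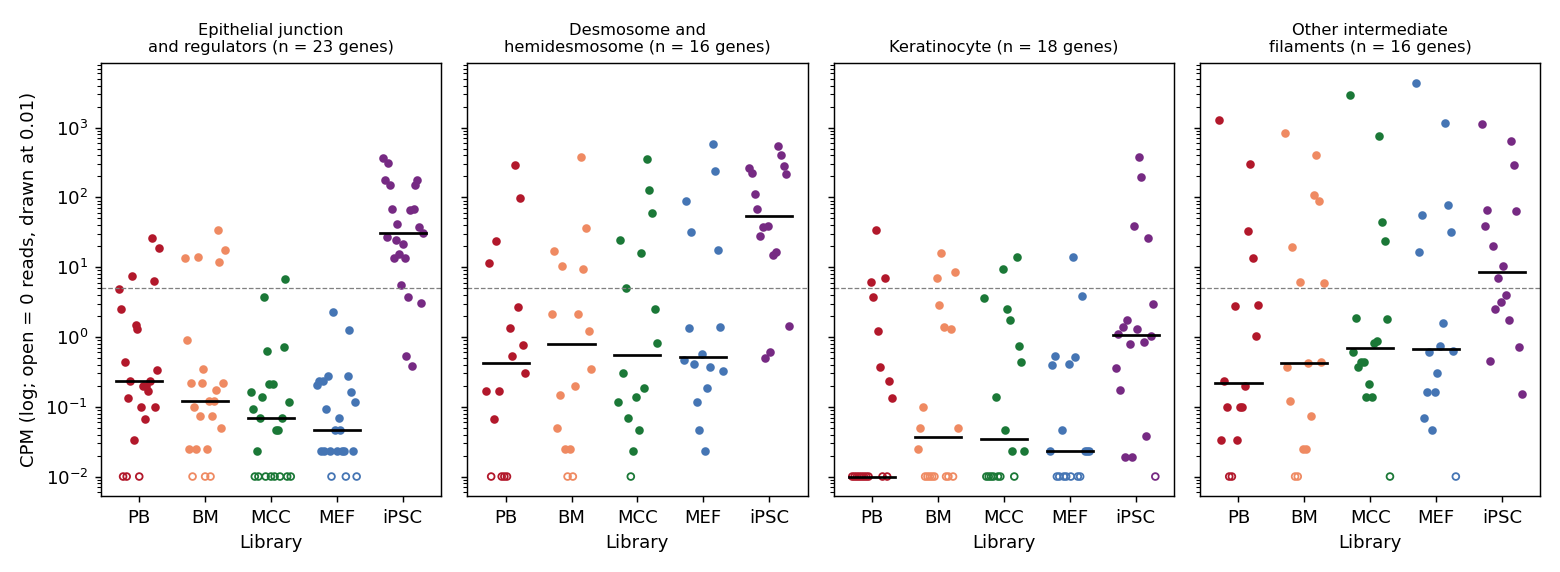
Level (CPM, log axis) of each gene on 4 lists, by library, with a black line at the list's median and open circles at 0.01 for 0 reads; the dashed line is 5 CPM. The iPSC medians are 30.4 CPM for epithelial junction genes and 53.3 CPM for desmosome genes, and no other library's median on these 2 lists exceeds 0.786 CPM.

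The remaining intermediate filament genes showed where MEF and MCC differ outside the keratins. Vim (vimentin) had 4415 CPM in MEF, 2915 in MCC, 1263 in PB, 1125 in iPSC and 822 in BM, and was thus high in all 5 libraries. Of 16 non-keratin intermediate filament genes, Vim included, 6 were at 5 CPM in MCC or MEF, of which 2 were at least 4-fold lower in MCC and 0 higher. These were Des, the filament of muscle, at 0.602 against 16.5 CPM, and Nes (nestin), of progenitor cells, at 1.85 against 56.1 CPM, both named after their values were seen. Among all genes at 5 CPM in MCC or MEF, 2.71% were at least 4-fold lower in MCC and 8.05% higher. Lmna, which encodes the A-type lamins of the nuclear envelope, had 763 CPM in MCC, 1158 in MEF and 647 in iPSC.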

How the data were processed

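Read counts per gene symbol, as whole numbers and not normalized, were deposited for 5 mouse libraries, 1 per group. PolyA RNA from Trizol extracts was sequenced, per the labels' protocols. The submitters' processing notes name STAR, featureCounts and mm10. The sources used here do not give their versions, the annotation, the strand setting or how reads with several origins were treated. 0 columns were left unused.

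Library sizes were scaled by TMM over the 5 libraries with edgeR 4.0.16 in R 4.3.3 to give CPM, and the rest in Python 3.11.15 with scipy 1.17.1, numpy 2.4.6, pandas 2.3.3 and matplotlib 3.10.9. A gene was counted as higher or lower where its CPM differed 4-fold or more and reached 5 CPM in the higher library (for this step, a count under 3 became 3). Printed ratios use the reads as counted, except that 0 reads are set to 3 and the ratio is then a lower bound. Ratios carry conditional binomial (Clopper-Pearson) intervals and levels exact Poisson ones. Reads have no stated molecular identifiers, so these cover counting error only.

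Exon lengths and positions came from GENCODE release M21 (mm10), in which all 48 keratins were matched, and promoter windows from RefSeq. Every keratin at 1 CPM or more in a library is named. From the other lists the 2 genes highest in MCC, MEF or iPSC and genes with a defining role are named, together with defining markers; others are said to be named with their values in view. The members and lists were chosen with earlier results of these data known. In simulated counts for each of the 6 comparisons, on 34970 genes, the rule recovered 100 of 100 genes made 8-fold higher and 100 of 100 made lower, and 0 unchanged genes were called. The simulation held no variation beyond counting, so it checks the arithmetic only. The alternatives were DESeq2 1.42.0 size factors, total counts, other minimum levels and the counting bound.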

Additional observations from a re-analysis of the deposited data

How the results depend on the processing

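No paired analysis was possible because each group has 1 library, and for the same reason no replicate could be left out. Of the recomputed counts, sums and leading ratios of keratins, 72 stayed near the first value and 43 moved; near means within 1.5 times for a count, and within the 95% counting interval for a sum or ratio. For the 17 single keratins above 1 CPM, tried under the other 2 scalings only, 197 ratios kept their side of the 4-fold rule, 2 came to pass it (Krt13 in iPSC) and 5 ceased to, and 0 that passed it reversed direction. With no minimum level, keratins lower in MCC numbered 6 against MEF, 19 against iPSC, 5 against BM and 7 against PB, and keratins higher in MCC 4 against BM and 3 against PB; 19 were lower in MEF than in iPSC and 2 higher in PB than in BM. With a minimum of 1 CPM, 5 were lower in MCC against each of MEF, BM and PB, and 3 higher against each of BM and PB. With 20 CPM, 0 were lower in MCC against MEF, 7 against iPSC, 1 against BM and 1 against PB, 0 were higher against BM or PB, and between PB and BM 0 differed. Fewer keratins reach a higher minimum by construction. The shares of all genes that pass under these other settings are not given here, so the recounts describe keratins alone and cannot be set against all genes. With total counts, 0 were higher in MCC than in BM or PB, 1 was lower than in PB, and 0 were higher in PB than in BM. With DESeq2 size factors, and with the nearer counting bound, 0 were lower in PB than in BM; with that bound 0 were higher in MCC than in PB. At 5 CPM in place of 1 CPM, the keratins counted were 2 each in PB, BM and MEF, and 1 in MCC.

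With total counts, the summed keratin CPM in MCC was 12.5, the summed keratin CPM in MEF 32.2 and the summed keratin CPM in iPSC 4460.2, and the ratio of Krt18, iPSC over MEF, was 229. With DESeq2 size factors the summed keratin CPM in PB was 142 and that in iPSC 3635. Without each library's leading keratin, the summed keratin CPM in BM was 19.3, that in PB 16.9, that in MEF 21.3, that in MCC 8.31 and that in iPSC 2471, which puts BM above PB and MEF above both. Total counts moved the median log2 ratio of all genes by −0.39 for MCC over iPSC and by −0.36 for MEF over iPSC, and the share of calls that were higher from 53.7% to 41.9% and from 41.9% to 30.4%. DESeq2 moved that median by −0.28 for MCC over PB.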
